A study of Drosophila melanogaster with 13 samples.

Results

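The X chromosome carried 486 of the 3433 distinct ChIP-Seq peaks that were listed for Dsim_Zeus, Dmel_Zeus and Dyak_Caf40. Members were all peaks assigned to the sequence X of the dm3 genome build, without the separate heterochromatic sequence XHet, and a peak that was repeated on several lines of a list was counted once. The Dsim_Zeus list contributed 129 X peaks, the Dmel_Zeus list 71 and the Dyak_Caf40 list 286. The other arms (2L, 2R, 3L, 3R and 4) held 2323 peaks and served for comparison.

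In ChIP-Seq, an antibody recovers the DNA fragments attached to a protein, these are sequenced, and a peak is an interval where reads pile up. The 3 lines were transgenic D. melanogaster made in the white-eyed strain w1118, and each expressed a single FLAG-tagged coding sequence from the Actin5C promoter on a piggyBac insertion: Zeus of D. simulans, Zeus of D. melanogaster or Caf40 of D. yakuba. All immunoprecipitations used the same anti-FLAG antibody on chromatin of whole adult flies, with 150 flies per technical replicate, and the labels give 4 Dsim_Zeus, 2 Dmel_Zeus and 4 Dyak_Caf40 libraries with 1 input each. In the library titles, the numbers of Dsim_Zeus and its input form a run of their own. Those of Dmel_Zeus and Dyak_Caf40 are interleaved in a separate range. What the numbers stand for is not stated, and a difference of Dsim_Zeus from the other proteins cannot be told apart from this split. The host's own Caf40 and Zeus genes were not described as removed, the promoter is active in most tissues rather than in the testis alone, replicates of a protein were technical, and neither the sex of the flies nor the insertion sites are given in the sources used here.

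Caf40 is a conserved subunit of CCR4-NOT, the complex that shortens the poly(A) tails of mRNAs, and Zeus is a retroposed copy of it that is expressed in the testis. The X of Drosophila is present in a single copy in males, where the dosage compensation complex coats it and raises its transcription. Towards the centromere its gene-rich euchromatin passes into pericentric heterochromatin, which is rich in repeated sequence.

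Each protein was represented by 1 peak list and no value per library was analysed here, so that the spread between replicates is unknown and no test between proteins was made. Shares are given with 95% Wilson intervals, which cover counting error only and take every peak as a separate draw, a condition that clustered peaks do not meet. How many reads lie behind a peak is unknown. Because the scale of the deposited score is not stated, scores were read only as ranks among the arm peaks of the same list (rank 1 is the highest) or as percentiles (100 is the highest).

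The first question was how the peaks were laid out along X. X peaks of Dsim_Zeus numbered 5.75 per Mb, against 4.84 per Mb on the autosomal arms. This order turned when the 1 Mb next to the centromere was left out on every large arm, with 3.45 per Mb on X and 3.94 per Mb on the autosomal arms. For Dmel_Zeus the density was 3.17 per Mb on X and 2.75 on the autosomal arms. Dyak_Caf40 had 12.8 peaks per Mb on X and 16.2 on the autosomal arms. Neither of these orders turned without the centromere-proximal 1 Mb. Added up, the intervals of Dsim_Zeus covered 77.6 kb of X, those of Dmel_Zeus 25.2 kb and those of Dyak_Caf40 125 kb.

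The filling of X was read in 23 steps of 1 Mb counted from the centromere-proximal end. Dsim_Zeus had 55 of its 129 peaks in the first step and a median of 3 peaks per step, and 3 steps held none. The fullest step of Dmel_Zeus, with 16 of 71 peaks (22.5%), lay 6 to 7 Mb from that end, at chrX:15422928-16422927. The fullest step of Dyak_Caf40 was the same, with 36 of 286 peaks (12.6%), and no step lacked a Dyak_Caf40 peak. All 16 Dmel_Zeus peaks of this step overlapped a Dyak_Caf40 peak, as did 97.1% of all Dmel_Zeus arm peaks, and Dsim_Zeus had 3 peaks in it.

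**Figure D1:**
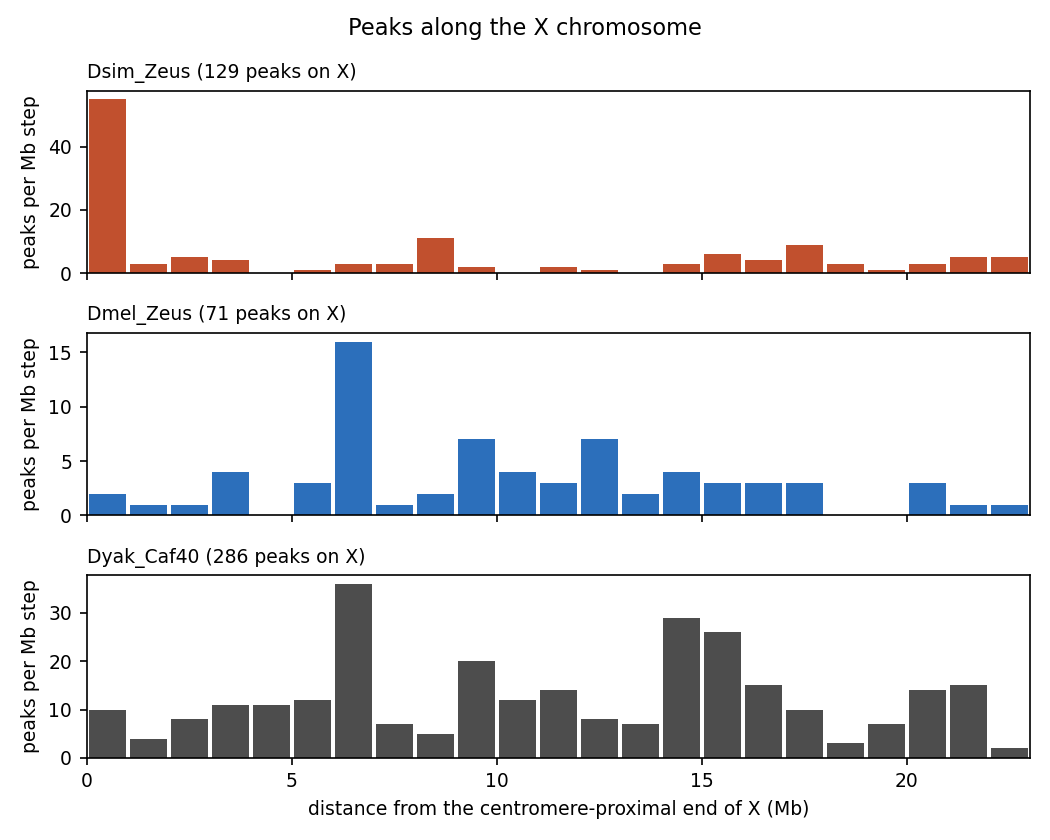
Number of distinct peaks in steps of 1 Mb (the last is shorter) against the distance from the centromere-proximal end of X, with a panel for each list and a scale of its own. Dsim_Zeus peaks pile up in the first step (55 peaks), whereas Dmel_Zeus (16) and Dyak_Caf40 (36) are densest between 6 and 7 Mb.

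Over the 22 whole steps, the peak numbers of Dmel_Zeus and Dyak_Caf40 had a Pearson r of 0.71 and a Spearman rho of 0.63. Dsim_Zeus and Dyak_Caf40 had an r of -0.079, and Dsim_Zeus and Dmel_Zeus an r of -0.091. These are descriptions over steps of the same chromosome, in which the lists share the base composition and mappability of each step. Without the first step the values were 0.71, -0.013 and -0.068.

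Stretches without peaks also differed between the lists. The longest in the Dmel_Zeus list measured 3.08 Mb, at chrX:2136327-5216575, and it held 10 Dsim_Zeus and 19 Dyak_Caf40 peaks. The longest in the Dsim_Zeus list measured 1.94 Mb, at chrX:17089609-19030602, and held 3 Dmel_Zeus and 14 Dyak_Caf40 peaks. The longest in the Dyak_Caf40 list, 0.831 Mb at chrX:20123147-20954306, was free of peaks of every protein.

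The crowding of Dsim_Zeus peaks next to the centromere was then resolved. Of its X peaks, 42.6% (34.4 to 51.3) lay within 1 Mb of the end of X, for which the outermost base of any listed peak, position 22422927, was used. Over the 5 large arms together 26.8% of Dsim_Zeus peaks lay in such a region, and over the 4 large autosomal arms 22.4% (104 of 465; 18.8 to 26.4). Among these arms the share ran from 7.06% on 3R to 28.5% on 3L. The difference between X and these arms depended on what was counted. With linked peaks (gaps of at most 10 kb) counted once, the share was 25.9% (16.1 to 38.9) on X and 23.9% (18.8 to 29.9) on the large autosomal arms, and with every line counted it was 18.1% and 17.2%. Within 0.5 Mb of the end the order was opposite, at 6.20% (3.18 to 11.8) on X and 12.0% (9.39 to 15.3) on those arms. The same region of X held 2 of 71 Dmel_Zeus peaks, 2.82% (0.776 to 9.70), where the large arms together gave 9.52%. It held 10 of 286 Dyak_Caf40 peaks, 3.50% (1.91 to 6.32), beside 5.54% over the large arms.

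Most of these Dsim_Zeus peaks formed a single block. Linked by gaps of up to 100 kb, 47 of the 55 lay at chrX:21511228-21835165, a span of 324 kb that began 588 kb from the end of X, and their ranks ran from 4 to 593 of 602. A second group of 6 peaks lay at chrX:22085605-22102933, with ranks from 68 to 487. The remaining pair were a peak of rank 571 at chrX:22217620-22217868 and the peak of rank 1 at chrX:22422227-22422927. The end of the latter was taken as the end of X, whose length in the build was not looked up. No Dmel_Zeus or Dyak_Caf40 peak lay in the last 3 groups, whereas the large block also contained 2 Dmel_Zeus and 7 Dyak_Caf40 peaks. These peaks were narrower than elsewhere on X, with a median width of 318 bp against 399 bp for the 74 others, and their median score percentile was 57.2 against 62.1.

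The Dyak_Caf40 peaks next to the centromere lay close to those of Dsim_Zeus. Of the 10, 2 overlapped a Dsim_Zeus peak, and 8 lay within 10 kb of one. The median distance of the 10 to the nearest Dsim_Zeus peak was 0.981 kb. Over all of X the median distance from a Dyak_Caf40 peak to the nearest Dsim_Zeus peak was 115 kb. The closeness goes with the number of Dsim_Zeus peaks in the block, and whether it exceeds what that density gives was not tested. The 2 Dmel_Zeus peaks here, at chrX:21765598-21766362 (rank 169 of 340) and chrX:21784873-21785392 (rank 61), overlapped Dyak_Caf40 peaks of ranks 312 and 224 and lay 1.04 kb and 3.89 kb from the nearest Dsim_Zeus peak.

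The next question was whether neighbouring peaks of a list came in clusters, defined as at least 2 peaks linked by gaps of at most 10 kb. Clusters held 102 of 129 Dsim_Zeus peaks on X, 79.1% (71.3 to 85.2), where all arm peaks of the list gave 74.1%. For Dyak_Caf40 they held 175 of 286 peaks, 61.2% (55.4 to 66.7), beside 64.9% over the arms. For Dmel_Zeus they held 8 of 71 peaks, 11.3% (5.82 to 20.7), beside 21.8% over the arms. With gaps of up to 20 kb the Dmel_Zeus share was 26.8%. Among the higher-scoring 50% of arm peaks it was 0 of 31, and the share of Dyak_Caf40 was 37.1%. The share depends on the number of peaks in a list, and it was not compared between lists.

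The spacing of neighbouring peaks was measured as well. The median gap on X was 4.94 kb for Dsim_Zeus, with quartiles of 0.825 and 142 kb, and 7.53 kb on its autosomal arms. Away from the last 1 Mb the Dsim_Zeus gap on X was 28.6 kb, and within it 3.19 kb. Dyak_Caf40 peaks were separated by a median of 18.9 kb on X and 15.2 kb on the autosomal arms. Dmel_Zeus peaks stood 108 kb apart on X and 197 kb apart on the autosomal arms.

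Dsim_Zeus had 27 clusters on X with 27 single peaks, and 8 clusters of 5 or more peaks held 54 of the 129. The largest, of 13 peaks at chrX:21789282-21835165, spanned 45.9 kb of the block next to the centromere and included peaks of ranks 4 to 362. Clusters of 8 peaks at chrX:21547783-21556798 and of 7 peaks at chrX:21572374-21588077 belonged to the same block. The span of the 13 peaks contained 2 Dyak_Caf40 peaks and that of the 7 contained 3, while no Dmel_Zeus peak fell in any of these clusters.

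Among the 61 Dyak_Caf40 clusters, the largest had 8 peaks at chrX:15738104-15769099, with ranks from 166 to 1713 of 1867. Within its span lay 2 Dmel_Zeus peaks. Clusters of 6 peaks followed at chrX:6744409-6773744 and chrX:8368870-8386863, each with 1 Dmel_Zeus and 1 Dsim_Zeus peak in its span. The Dmel_Zeus clusters were 4 pairs, at chrX:15781254-15784682, chrX:15877655-15881106, chrX:16278898-16285686 and chrX:18677694-18682589. The 8 peaks of these pairs were among the Dmel_Zeus peaks that overlapped Dyak_Caf40.

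A compact Dsim_Zeus cluster lay in the middle of X. Its 6 peaks at chrX:13940708-13954979 covered 13.2 kb of a 14.3 kb span, with gaps so short that the interval was nearly continuous. The widest X peak of the list, 3578 bp at chrX:13946383-13949960, had rank 5 of 602. Its neighbours at chrX:13952952-13954979, chrX:13950054-13952349 and chrX:13942613-13946005 had ranks 7, 8 and 9, and that at chrX:13940708-13942378 had rank 13. A short peak of 250 bp between them had rank 191. The nearest Dyak_Caf40 peak was 165 kb away and the nearest Dmel_Zeus peak 186 kb away.

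The same cluster stood out in the number of lines per peak. In the Dsim_Zeus list X peaks occupied 598 lines, of which the 4 most repeated peaks, all in this cluster, took 332 (55.5%), with 128, 96, 54 and 54 lines. Repeated lines were found for 31 of 129 Dsim_Zeus peaks on X, 24.0% (17.5 to 32.1), and for 110 of 473 on the autosomal arms, 23.3% (19.7 to 27.3). Among Dyak_Caf40 X peaks 15 of 286 were repeated, on up to 3 lines, and 0 of 71 Dmel_Zeus X peaks, where a limit of 3 peaks for a count of 0 allows a share of up to 4.23%. How the repeats arose is not stated in the sources used here.

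Repeated Dsim_Zeus peaks were wide and high in score. Their median width was 1149 bp, against 309 bp for the 98 X peaks on a single line. Their median score percentile was 80.0, against 49.3 for the others. Among repeated Dyak_Caf40 X peaks the width was also larger (533 against 338 bp), but the median score percentile was lower (37.0 against 53.5).

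**Figure D2:**
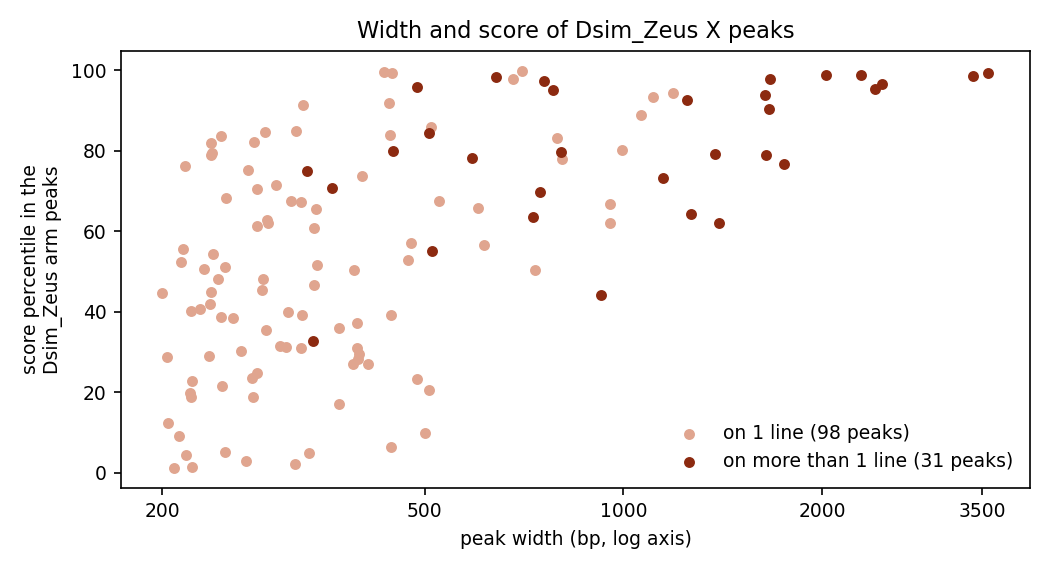
Width (log axis, in bp) and score percentile of the 129 Dsim_Zeus peaks on X, with the 31 peaks that occupied more than 1 line in the darker colour. These lie to the right, at a median of 1149 bp against 309 bp, and at higher percentiles.

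Median widths on X lay close to those of the autosomal arms. The median was 361 bp for Dsim_Zeus (345 bp on the autosomal arms), 309 bp for Dmel_Zeus (304 bp) and 345.5 bp for Dyak_Caf40 (336 bp). The upper quartiles, in the same order, were 680, 369.5 and 478 bp on X and 529, 376 and 489 bp on the autosomal arms. The widest Dmel_Zeus peak on X measured 1125 bp, at chrX:9480866-9481990, with rank 235. The widest of Dyak_Caf40 measured 2180 bp, at chrX:6473804-6475983, with rank 804 and no overlap with either Zeus list.

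Where the X peaks stood in the score order of their list differed more. Of the 10 highest-scoring Dsim_Zeus arm peaks 7 were on X, and of the first 50, 20. With linked peaks counted once, these 7 were 4 loci, since ranks 5, 7, 8 and 9 belonged to the compact cluster, and the 20 were 12. None of the 10 highest-scoring Dmel_Zeus peaks was on X, and 6 of the first 50 were. For Dyak_Caf40 the numbers were 1 of 10 and 6 of 50. X peaks made up 21.4% of the arm peaks in the Dsim_Zeus list, 20.9% in that of Dmel_Zeus and 15.3% in that of Dyak_Caf40.

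The median score percentile of Dsim_Zeus X peaks was 61.2, against 47.3 on the autosomal arms. The upper 25% of the list by score included 44 of 129 X peaks, 34.1% (26.5 to 42.6), and 22.4% (18.9 to 26.4) of autosomal peaks. For Dyak_Caf40 the median percentiles were 51.4 on X and 49.5 on the autosomal arms, with 30.8% (25.7 to 36.3) and 23.9% (21.9 to 26.1) of peaks in the upper 25%. Dmel_Zeus had medians of 44.6 on X and 51.9 on the autosomal arms, and 15 of 71 X peaks, 21.1% (13.2 to 32.0), and 70 of 269 autosomal peaks (interval of 21.1 to 31.6%) were in the upper 25%. Whether these differences exceed those between replicates cannot be told from 1 list per protein.

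The 3 highest-scoring X peaks of Dmel_Zeus and of Dyak_Caf40 were the same sites. Dmel_Zeus had rank 19 at chrX:16534538-16535059, where Dyak_Caf40 had rank 10 at chrX:16534494-16535067. The next site was chrX:15781254-15781594 with rank 24 for Dmel_Zeus and chrX:15781225-15781619 with rank 18 for Dyak_Caf40. At the third, chrX:2135928-2136326 had rank 31 for Dmel_Zeus and chrX:2135908-2136375 rank 19 for Dyak_Caf40. In each case the Dmel_Zeus interval lay inside that of Dyak_Caf40, and the nearest Dsim_Zeus peak was between 69.2 and 279 kb away.

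The highest-scoring Dsim_Zeus X peaks were elsewhere. Ranks 1 and 4 lay next to the centromere, the latter at chrX:21834720-21835165, and rank 3 at chrX:12994561-12994994. The nearest Dyak_Caf40 peaks were 546, 22.2 and 11.4 kb from the peaks of rank 1, 4 and 3. No peak of another list overlapped any of them.

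The sharing of X peaks between lists was then counted, with at least 1 bp in common. Of the Dmel_Zeus X peaks, 65 of 71 overlapped a Dyak_Caf40 peak, 91.5% (82.8 to 96.1), where all Dmel_Zeus arm peaks gave 97.1%. On the autosomal arms it was 265 of 269, 98.5% (96.2 to 99.4). The X peaks without an overlap fell in 3 stretches and were not separate draws, and the difference was not tested. In the other direction 65 of 286 Dyak_Caf40 X peaks overlapped a Dmel_Zeus peak, 22.7% (18.3 to 27.9), beside 17.2% over the arms and 16.3% (14.5 to 18.2) on the autosomal arms. In neither Zeus list were 219 of 286 Dyak_Caf40 X peaks, 76.6% (71.3 to 81.1), beside 81.9% of all Dyak_Caf40 arm peaks.

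Dsim_Zeus shared few X peaks with either list. An overlap with Dyak_Caf40 was found for 6 of 129, 4.65% (2.15 to 9.78), close to the 5.65% of its arm peaks. Of the Dyak_Caf40 X peaks, 5 of 286 overlapped a Dsim_Zeus peak, 1.75% (0.749 to 4.03), beside 1.34% over the arms. The Zeus lists met at a single site on X, so that 1 of 129 Dsim_Zeus peaks was shared with Dmel_Zeus (2.66% over the arms) and 1 of 71 Dmel_Zeus peaks with Dsim_Zeus (2.35%). These counts are too small to tell whether X departs from the other arms for Dsim_Zeus, and this was not tested.

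**Figure D3:**
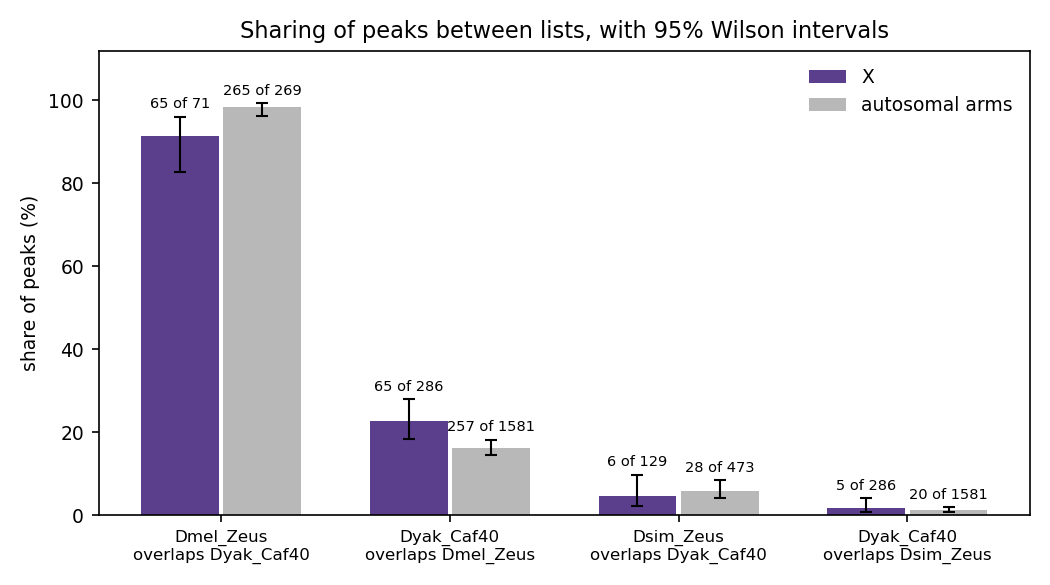
Share of peaks (%) that overlap a peak of another list by at least 1 bp, on X and on the autosomal arms, with 95% Wilson intervals and counts above the bars. Dmel_Zeus peaks overlap Dyak_Caf40 in 65 of 71 cases on X and in 265 of 269 on the autosomal arms, and overlap with Dsim_Zeus peaks is below 6% throughout.

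The 65 sites shared by Dmel_Zeus and Dyak_Caf40 on X were compared in position and score, and those of the autosomal arms were not. Each Dmel_Zeus peak met a single Dyak_Caf40 peak, and the midpoints were a median of 17 bp apart, with 49 of 65 pairs within 50 bp. The Dmel_Zeus peak lay wholly inside the Dyak_Caf40 peak in 53 pairs, and the Dyak_Caf40 peak was the wider in 60, by a median of 91 bp over all pairs. The largest distance between midpoints, 711.5 bp, was found at chrX:11727041-11727256, where the Dyak_Caf40 peak was 1599 bp wide. The score ranks of the pairs had a Spearman rho of 0.77 and a Pearson r of 0.69, a description over 65 sites of the same chromosome.

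Among the 13 shared sites in the upper 25% of the Dmel_Zeus list, 10 had a Dyak_Caf40 rank of 88 or better. The other 3 ranked past 200 for Dyak_Caf40 and were singled out after their values had been seen. At chrX:9409446-9409931 the ranks were 43 for Dmel_Zeus and 246 for Dyak_Caf40. At chrX:9996826-9997208 they were 64 and 259, and at chrX:21784873-21785392 they were 61 and 224. In these 3 pairs the Dmel_Zeus peak was the wider, at 486, 383 and 520 bp against 348, 214 and 486 bp.

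Which Dyak_Caf40 X peaks had a Dmel_Zeus partner followed the Dyak_Caf40 score. Peaks of the autosomal arms were not divided in this way, so the pattern is not shown to be particular to X. The 286 X peaks were divided by score into 5 groups of 57 or 58. In the highest-scoring group, 53 of 57 overlapped a Dmel_Zeus peak, 93.0% (83.3 to 97.2). In the next group it was 10 of 57, 17.5% (9.82 to 29.4), and in the middle group 2 of 58, 3.45% (0.951 to 11.7). In each of the lower 2 groups it was 0 of 57, where a limit of 3 peaks allows a share of up to 5.26%. The first 26 Dyak_Caf40 X peaks by score all had a partner. The highest without one was chrX:15753940-15754248 with rank 166, which lay 1.88 kb from a Dmel_Zeus peak, and the lowest with one was chrX:1988536-1988786 with rank 918.

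**Figure D4:**
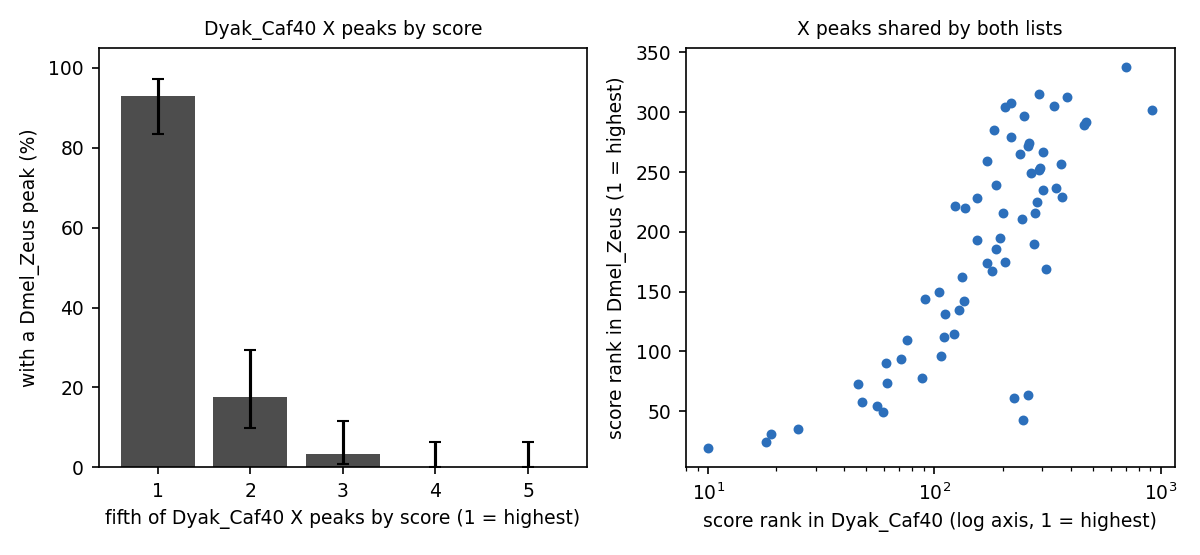
Left, share (%) of Dyak_Caf40 X peaks with an overlapping Dmel_Zeus peak in 5 groups of falling Dyak_Caf40 score, with 95% Wilson intervals. Right, score ranks of the 65 shared sites in both lists (log axis for Dyak_Caf40), which tend to rise together (rho of 0.77) with scatter, including 3 sites of Dmel_Zeus ranks 43, 61 and 64 at Dyak_Caf40 ranks past 200.

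Shared Dyak_Caf40 X peaks were also wider. The median width was 396 bp for the 65 with a Dmel_Zeus peak and 316 bp for the 221 without. From the highest to the lowest of the 5 score groups the median width of Dyak_Caf40 X peaks went from 395 to 297 bp. The part of width in the sharing was not tested.

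The 6 Dmel_Zeus X peaks without a Dyak_Caf40 peak all lay within 2.74 Mb, at chrX:9703052-12439747, which is 12.2% of X. They were 6 of 71 X peaks (8.45%), beside 4 of 269 on the autosomal arms (1.49%) and 10 of 340 over all arms (2.94%). Inside this stretch Dmel_Zeus had 14 peaks, of which 8 overlapped Dyak_Caf40, and the 57 outside it all did, which follows from how the stretch was drawn, from the first to the last of the 6. Dyak_Caf40 had 31 peaks in the stretch and Dsim_Zeus 3, and no Dsim_Zeus peak met any of the 6.

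These were not the weakest Dmel_Zeus peaks. Their ranks were 72 (chrX:9703052-9703731), 77 (chrX:12331727-12332095), 119 (chrX:10234121-10234504), 139 (chrX:12439388-12439747), 181 (chrX:11940923-11941634) and 189 (chrX:9799216-9799585) of 340. Their median score percentile was 62.2, against 42.5 for the 65 shared ones, and their widths were 360 to 712 bp, against a median of 294 bp.

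The distances to Dyak_Caf40 were read next. The nearest Dyak_Caf40 peaks lay 115, 145, 30.7, 37.2, 19.9 and 104 kb away, in the same order. For the 4 Dmel_Zeus peaks of the autosomal arms without Dyak_Caf40 the distance was 0.773 to 15.2 kb, close to the 19.9 kb of the nearest X peak. The 6 peaks fell in 3 stretches of 316, 448 and 556 kb that held no Dyak_Caf40 peak. Stretches of at least 300 kb without a Dyak_Caf40 peak numbered 20 on X. Why the 6 sites lacked a Dyak_Caf40 peak was not tested.

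**Figure D5:**
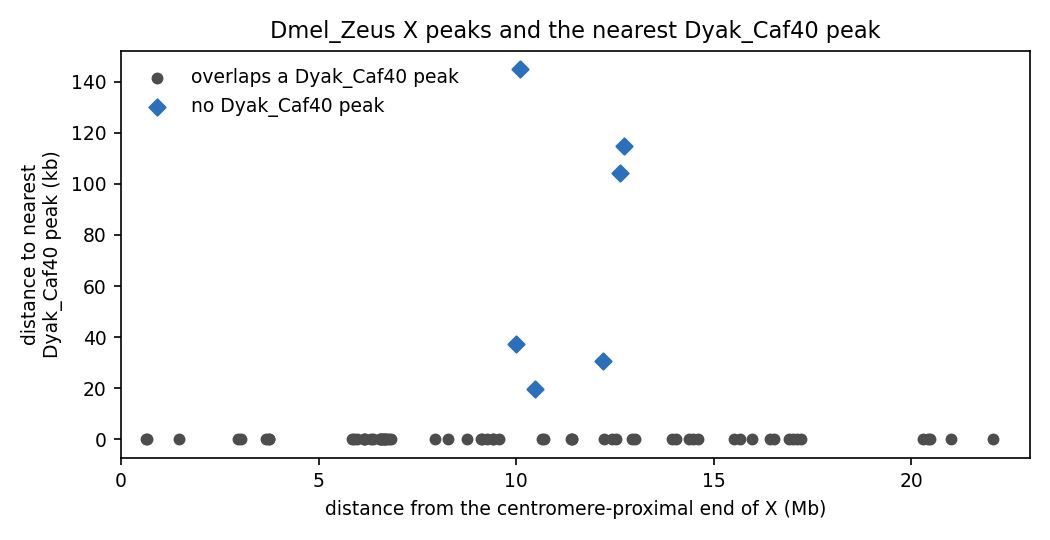
Distance (kb) from each of the 71 Dmel_Zeus X peaks to the nearest Dyak_Caf40 peak, against the distance from the centromere-proximal end of X (Mb). The 65 overlapping peaks are at 0, and the 6 others, 19.9 to 145 kb away, lie together between 9.98 and 12.7 Mb.

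The numbers in the peak names carried further information. In each list they rose with position along X and no other sequence used the same range, so that it could be counted how many numbers of the X range had a listed peak. X numbers of Dyak_Caf40 ran from 2451 to 2830 and 286 of these 380 (75.3%) were listed, against 66.7 to 86.1% on the single autosomal arms. For Dmel_Zeus 71 of 80 (88.8%) were listed on X and 83.3 to 100% on the autosomal arms. For Dsim_Zeus it was 129 of 857 (15.1%) on X, above each autosomal arm (3.05 to 13.9%).

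Next to the centromere the listed share of Dsim_Zeus numbers was higher than on the rest of X. In the last 1 Mb 55 of 145 numbers (37.9%) were listed, and 74 of 708 (10.5%) elsewhere on X. For Dyak_Caf40 the order was opposite, with 10 of 25 (40.0%) in the last 1 Mb and 276 of 352 (78.4%) elsewhere. Without that end, the Dsim_Zeus share on X lay inside the range of the autosomal arms, which were taken whole. The methods describe that peaks were kept where replicates intersected, and the part of this step in the missing numbers was not tested.

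The numbers were then read at the sites described above. On either side of the Dmel_Zeus peaks at chrX:9703052-9703731 and chrX:9799216-9799585, the Dyak_Caf40 peaks had the consecutive numbers 2613 and 2614. Around the 3 sites between 11940923 and 12439747 they were 2652 and 2653, also consecutive. The stretch around chrX:10234121-10234504 lacked 1 number. At 5 of the 6 sites the Dyak_Caf40 numbering thus had no gap, but sites in the same stretch are not separate observations. Of the 20 stretches of at least 300 kb on X, 11 lacked no number, so this was not particular to these sites. The Dyak_Caf40 numbering lacked 12 numbers in the stretch chrX:13775558-14141442, which contains the compact Dsim_Zeus cluster, the most of the 20 stretches.

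The 6 Dsim_Zeus X peaks that overlapped Dyak_Caf40 were of distinct kinds. Next to the centromere 3 of them lay wholly inside Dyak_Caf40 peaks. That at chrX:21802070-21802353 (rank 312) was inside chrX:21801715-21802711 (rank 544), with midpoints 1.5 bp apart. Those at chrX:21803166-21803386 (rank 360) and chrX:21803594-21804322 (rank 220) were both inside chrX:21803068-21804695 (rank 410). No Dmel_Zeus peak overlapped any of these.

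The other 3 overlapped Dyak_Caf40 in part only, and these were also the only X sites with all 3 proteins, of 10 such Dyak_Caf40 peaks on the arms. At chrX:5418444-5418890 (Dyak_Caf40, rank 135) the Dsim_Zeus peak chrX:5418689-5419132 (rank 366) shared 202 bp and the Dmel_Zeus peak chrX:5418565-5418880 (rank 142) all of its 316 bp. Here alone on X the Zeus peaks met, over 192 bp.

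At chrX:6746562-6747010 (Dyak_Caf40, rank 179) the Dsim_Zeus peak chrX:6746980-6747504 (rank 195) shared 31 bp, and the Dmel_Zeus peak of rank 167 lay within the Dyak_Caf40 interval. At chrX:8373276-8374448 (Dyak_Caf40, rank 467) the Dsim_Zeus peak chrX:8374423-8375532 shared 26 bp, 2.34% of its length. This Dsim_Zeus peak had rank 40, and the Dmel_Zeus peak there, chrX:8374155-8374396, rank 292. Midpoints of the Dsim_Zeus and Dyak_Caf40 peaks were 243.5, 456 and 1115.5 bp apart at the 3 sites, and those of Dmel_Zeus and Dyak_Caf40 were 55.5, 36 and 413.5 bp apart. In all of these the Zeus midpoint lay on the centromere side of that of Dyak_Caf40.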

How the data were processed

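ChIP-Seq peak lists of 3 proteins, from 13 libraries (10 immunoprecipitations and 3 inputs), were analysed. According to the methods of the study, the authors mapped single-end reads with BWA to dm3, called peaks with MACS2 and retained the intervals that their better replicates had in common. The processing notes of the submitters also name CASAVA 1.4 and mm9, a mouse build that does not match the sequence names. The deposited lists give the start and end in bp (other values) and a score for each peak, whose scale the authors did not state. Each list was assigned to a protein by the letter of the line code in the sample titles.

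Identical lines were merged. Positions are on dm3, counted from 1. Overlaps (at least 1 bp), clusters (gaps of at most 10 kb), distances and Wilson intervals were computed, and alternatives of line counting, score limit, overlap, link and end length tried, with Python 3.11.15, pandas 2.3.3 and scipy 1.17.1, and the functions were tested on planted intervals. Members, lists and groupings were chosen with earlier results of these data known. Named peaks were the 3 highest-scoring and the widest X peaks of each list, the 3 fullest clusters, sites in all 3 lists, Dsim_Zeus peaks shared with another list and Dmel_Zeus peaks without Dyak_Caf40; others are said to have been chosen after their values were seen or are described as extremes of a count. A genome and an annotation of dm3 were not used here, so no sequence, motif or gene is given.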

Additional observations from a re-analysis of the deposited data

Results flagged for a closer look

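Peaks on XHet, the heterochromatic sequence of the X that the build keeps apart from the arm, entered none of the comparisons above. There were 9 distinct peaks of Dsim_Zeus, 7 of Dmel_Zeus and 8 of Dyak_Caf40 on it. They cannot be placed relative to the peaks next to the centromere, because the order of the sequences is not given in the lists.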

How the results depend on the processing

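Of 81 values under an alternative, 54 stayed inside the 95% interval of the main value (for numbers and densities of peaks, within 1.5 times), 26 moved and 1 turned: the Dsim_Zeus density on X relative to the autosomal arms, 1.19, was 0.877 without the last 1 Mb of every large arm, an alternative added after the data had been seen. No replicate could be left out, since each protein has 1 list without values per library. No paired analysis was possible because the lists hold no value per library. The motif and start site alternatives were not run without a dm3 genome.

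The number of X peaks of Dsim_Zeus was 598 with every line counted, 78 in the higher-scoring 50% of arm peaks and 54 with linked peaks counted once (27 clusters and 27 single peaks). The higher-scoring 50% left 31 Dmel_Zeus and 151 Dyak_Caf40 peaks, and Dyak_Caf40 had 172 with linked peaks counted once (61 clusters and 111 single peaks). With this score limit the Zeus lists shared 0% in both directions, 17.9% of Dyak_Caf40 X peaks overlapped Dmel_Zeus, clustered shares were 69.2% (Dsim_Zeus), 0% (Dmel_Zeus) and 37.1% (Dyak_Caf40), and median widths were 509.5, 342 and 383 bp. Every line counted gave 1.51% for Dsim_Zeus with Dyak_Caf40, and a required overlap of 50% of the shorter peak gave 0.699% for Dyak_Caf40 with Dsim_Zeus. The Dsim_Zeus clustered share was 68.9% without the last 1 Mb. Links of 20 kb gave 26.8% for Dmel_Zeus and 72.4% for Dyak_Caf40, and links of 5 kb 51.7% for Dyak_Caf40. The Dsim_Zeus share next to the centromere was 25.9% with linked peaks counted once, 18.1% with every line and 6.20% within 0.5 Mb, where Dmel_Zeus and Dyak_Caf40 had 0%, and the autosomal values beside it were added after the data had been seen. The causes were not tested beyond the construction of each alternative.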
